A study of Saccharomyces cerevisiae with 20 samples.

Results

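The proteasome is described here by the mRNAs of 38 yeast genes. They were listed by locus tag and by no cutoff on a measured value, but with earlier results of these data known. They are the 14 subunits of the 20S core particle, the 19 subunits of the 19S regulatory particle, the regulator *RPN4*, and *RPN14*, *UBP6*, *ECM29* and *UMP1*. These 38 genes stand among 7126 listed in every library, and all 38 passed the filter on low counts that left 5849 genes for testing. The lowest count of any of them in any library was 122 and the highest 2438, so none lay near the floor of 3 counts. Polyadenylated RNA of *Saccharomyces cerevisiae* was sequenced and the reads counted per gene, with 3273876 to 3926511 counts in each of the 18 libraries used. That depth puts 3 counts at 0.764 to 0.916 CPM, which are counts scaled to a library total of 1000000, and this floor covers counting error only.

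All libraries came from the BY4741 background, in which *his3*, *leu2*, *met15* and *ura3* are mutated, and the labels give *lys2* to every strain, WT included. Cells were grown in synthetic minimal medium (YNB) with added lysine and harvested at an OD600 of 1.0 after 10 cell divisions. The groups were WT (4 libraries), *elp3 deg1* (4), *urm1 deg1* (4), and libraries labelled *elp3 tcd1* (3) and *urm1 tcd1* (3). The study's strain list gives 1 strain for each genotype, so a change that belongs to a strain and one that belongs to its genotype cannot be told apart. Replicate 4 of both *tcd1* labels was left out, because the counts of the deleted genes in these libraries went against the labels. In the libraries used, *ELP3*, *URM1* and *DEG1* held at most 7 counts wherever the label names them as deleted, and *TCD1* held at most 2 in *urm1 tcd1*. In the 3 libraries labelled *elp3 tcd1*, however, *TCD1* kept 147 to 185 counts, a mean of 39.6% of its WT level, so the label is used for these libraries throughout only as a name. Each library represents a whole culture, and a change in every cell and a larger change in some of the cells cannot be told apart. The labels number the replicates without saying that they were separate cultures, so the p-values measure the spread between these libraries, which may be technical.

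Elp3 is the catalytic subunit of Elongator, which begins the mcm5 modification of the wobble uridine of several tRNAs, and Urm1 carries the sulfur for the s2 thiolation of the same base. Deg1 makes pseudouridine in the anticodon stem loop and Tcd1 makes the cyclic form of t6A next to the anticodon, so that the *deg1* pairs bear on the glutamine tRNA that reads CAA codons and the *tcd1* pairs on the lysine tRNA that reads AAA codons. The proteasome degrades proteins marked with ubiquitin. Its 20S core is a barrel of alpha rings, which gate the channel, around beta rings, which hold the peptidase sites, and its 19S particle consists of a base with a ring of ATPases, which unfold substrates, and a lid, which removes ubiquitin. In yeast the subunit genes share the transcription factor Rpn4, which binds the proteasome associated control element (PACE, GGTGGCAAA) in their promoters. Rpn4 is itself a short-lived substrate of the proteasome, which forms a feedback loop at the level of the protein.

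The PACE letters were searched on both strands in the 300 bases before each start codon, in the RefSeq R64 genome, in which all 38 genes had the same start and end as in the deposited files. They stood before 28 of the 38 genes (73.7%) and before 27 of the 33 subunit genes (81.8%), against 73 of 6001 protein-coding genes (1.22%). The inner letters GTGGCAA, which are contained in PACE, stood before 35 of the 38 (92.1%) and before 295 of all 6001 (4.92%). The windows below are those of the members whose values are given by library, read 5′ to 3′ on the strand of the gene, with the matched letters in capitals. The first set holds PACE, in either orientation.
PUP3 (chrV:349511-349539, - strand): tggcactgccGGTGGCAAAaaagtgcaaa
PRE6 (chrXV:255218-255246, + strand): cgaagattctTTTGCCACCggaagggaaa
PRE10 (chrXV:1018856-1018884, - strand): cctctaaatcGGTGGCAAAaataagaaag
SCL1 (chrVII:475337-475365, - strand): cacacaccaaTTTGCCACCgtaaggatag
PRE1 (chrV:177683-177711, + strand): aaatctttacGGTGGCAAAaaataaagaa
RPT1 (chrXI:174048-174076, + strand): attaccgaatTTTGCCACCcgaaaactaa
RPT6 (chrVII:411352-411380, - strand): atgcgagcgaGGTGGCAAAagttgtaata
RPN2 (chrIX:220801-220829, - strand): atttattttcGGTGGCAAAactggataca
RPN5 (chrIV:190776-190804, + strand): ttgacttttcGGTGGCAAAatgcaaaggg
ECM29 (chrVIII:39943-39971, + strand): gccttttcttGGTGGCAAAaaaaaggtac
The second set holds only the inner letters, and is shown because it includes *PUP1* and *SEM1*, among the genes with the largest rises below.
PUP1 (chrXV:631892-631918, - strand): acccggccgaGTGGCAAaataccaaaa
PRE5 (chrXIII:901553-901579, + strand): ctattatagaGTGGCAAaattaaaaat
SEM1 (chrIV:1202077-1202103, + strand): agtgaatagaGTGGCAAtaaaagtcga
UBP6 (chrVI:164957-164983, + strand): ttttcgaattTTGCCACtgcaagtaat
UMP1 (chrII:582268-582294, - strand): taaccatgcaGTGGCAAttttatccta
Neither form was found in this window before *RPN4*, *RPN14* or *RPN13*. In the first set the letters lie 75 to 174 bases before the start codon, and *SCL1*, *PRE6* and *RPT1* carry them on the opposite strand. A match of letters is a description of the promoter and not a measured binding site.

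In *elp3 deg1*, proteasome mRNAs rose broadly. Of the 38 genes, 31 were higher than in WT and 3 were lower (edgeR quasi-likelihood test, 4 libraries against 4, Benjamini-Hochberg adjusted p at or under 0.01 over all 5849 genes), where 33.1% of all genes tested were higher and 33.4% lower. All 14 core subunits rose, as did 16 of the 19 regulatory particle subunits, and the median log2 fold change of the 33 subunits was 0.53, or 1.45-fold, against -0.00493 for all genes tested. When a log2 fold change of at least 0.5 was also asked, 19 of the 38 were higher and 1 was lower, against 19% and 16.5% of all genes.

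In *urm1 tcd1*, 24 of the 38 genes were higher and 4 lower (3 libraries against 4), against 32.8% and 32.2% of all genes. The median of the 33 subunits was 0.39 (1.31-fold), with 13 of the 14 core subunits and 11 of the 19 regulatory subunits called higher. At least 0.5 log2 was reached by 10 higher and 2 lower genes, against 20% and 16.7% of all genes. The size of this rise against WT depends on the scaling, which moves all genes of a library nearly alike, as described below. Among all log2 fold changes the median subunit stood in percentile 75.

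In the other mutants the members did not move together. In *urm1 deg1*, 10 were higher and 15 lower, where 33.2% and 33.1% of all genes were, and the subunit median was -0.01. DESeq2 called 6 higher there. In the libraries labelled *elp3 tcd1*, 9 were higher and 7 lower, where 32.1% and 32.3% of all genes were, and the subunit median was 0.03. With the size of 0.5 log2, *urm1 deg1* had 1 higher and 2 lower members (15.3% and 17.1% of all genes) and the libraries labelled *elp3 tcd1* had 3 higher and 0 lower (16.6% and 14.1% of all genes). Lower by at least 0.5 log2 in these libraries were also 0 members at an unadjusted p under 0.05 by edgeR and 0 by DESeq2. The 4 comparisons share the WT libraries. Shares near the background are no result about the proteasome.

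**Figure D1:**
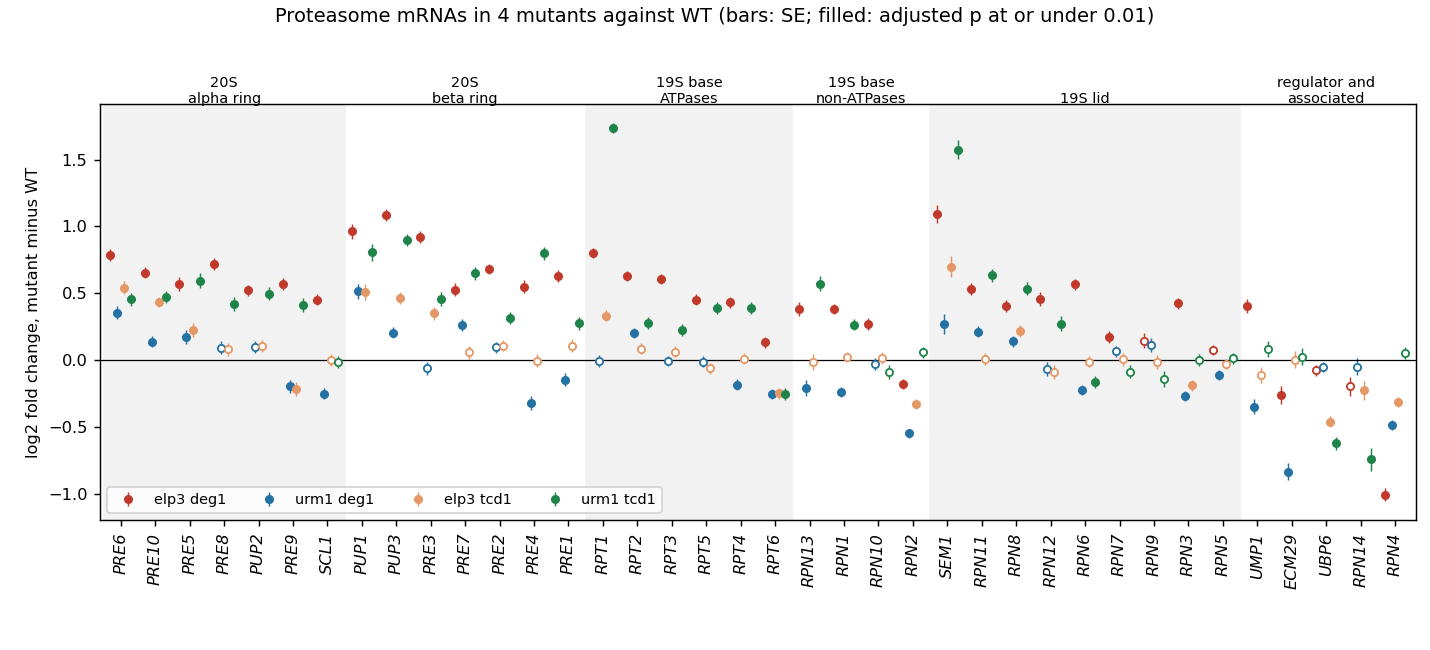
Log2 fold change against WT (y axis) of each of the 38 genes (x axis), grouped by place in the proteasome and ordered by their mean, with one colour for each mutant, bars for the standard error and filled points for adjusted p at or under 0.01. The red points of *elp3 deg1* lie above 0 for 32 of the 33 subunits, and *RPT1* and *SEM1* reach 1.73 and 1.57 in *urm1 tcd1*.

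The alpha ring showed its largest mean change in *PRE6* and its smallest in *SCL1*. *PRE6* (YOL038W, chrXV:255337-256101, + strand) had 156, 160.0, 162 and 157 CPM in WT and 270.4, 275, 279 and 268 in *elp3 deg1*, 218, 200.2, 214 and 198 for *urm1 deg1*, 228, 243 and 227 under the label *elp3 tcd1* and 209, 225 and 216 in *urm1 tcd1*. The mutant libraries were all higher than those of WT, with log2 fold changes of 0.79, 0.36, 0.54 and 0.46 in that order. *SCL1* (YGL011C, chrVII:474489-475247, - strand) had 257, 249.7, 252 and 249 CPM in WT, 337, 345, 341 and 354 in *elp3 deg1*, 213, 212, 212 and 226 for *urm1 deg1*, 245, 265 and 252 under the label *elp3 tcd1* and 235, 259 and 254 in *urm1 tcd1*. It rose in *elp3 deg1* (log2 fold change 0.45 ± 0.04 SE, edgeR adjusted p = 3.17e-12), fell in *urm1 deg1* (-0.25 ± 0.04 SE, edgeR adjusted p = 5.43e-07) and was not called in the others, where its libraries overlapped those of WT. *PRE10* and *PRE5* were called higher in all 4 mutants, with *PRE10* (YOR362C, chrXV:1017880-1018746, - strand) at 245, 252, 264 and 252 CPM in WT against 404, 396, 391 and 398 in *elp3 deg1*, 291, 298, 278 and 270.2 for *urm1 deg1*, 346, 345 and 339 under the label *elp3 tcd1* and 349, 359 and 339 in *urm1 tcd1*. For *PRE5* (YMR314W, chrXIII:901709-902413, + strand) the levels were 124, 140.2, 144 and 129 CPM in WT, 188, 208, 199 and 200.4 in *elp3 deg1*, 162, 150.0, 146 and 159 for *urm1 deg1*, 152, 161 and 159 under the label *elp3 tcd1* and 196, 211 and 198 in *urm1 tcd1*. The calls of *PRE5* and *PRE10* in *urm1 deg1* (log2 fold changes 0.17 and 0.14) were lost with DESeq2. That of *PRE5* was also lost without replicate 1 or 4 of WT or replicate 1 or 4 of the mutant, and that of *PRE10* without WT replicate 1 or mutant replicate 2. *PRE9* was higher in *elp3 deg1* and *urm1 tcd1* (0.57 and 0.41) and lower in the other mutants (-0.20 and -0.21). Both lower calls were lost with upper quartile scaling, and with library totals alone so were that in *urm1 deg1* and the higher call in *urm1 tcd1*.

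In the beta ring, all 7 genes were higher in *elp3 deg1* and all 7 in *urm1 tcd1*, against 33.1% and 32.8% of all genes. The medians of the ring were 0.68 and 0.65. With library totals alone, the calls of *PRE1* and *PRE2* in *urm1 tcd1* were lost. *PUP1* (YOR157C, chrXV:630966-631751, - strand), which encodes the beta subunit with trypsin-like activity, had 91, 82.1, 91.7 and 83.1 CPM in WT and 180.1, 166, 170.3 and 162 in *elp3 deg1*. In *urm1 deg1* it had 133, 124, 126 and 126 CPM, under the label *elp3 tcd1* 124, 128 and 122 and in *urm1 tcd1* 146, 161 and 148. It was the member with the largest rise in *urm1 deg1* (log2 fold change 0.51 ± 0.06 SE, edgeR adjusted p = 2.27e-11), and its mutant libraries all exceeded WT. *PUP3* (YER094C, chrV:348729-349346, - strand), a beta subunit without its own peptidase site, had 174, 184, 185 and 184 CPM in WT, 370.0, 361, 416 and 389.6 in *elp3 deg1*, 222, 208, 216 and 208 for *urm1 deg1*, 263, 255 and 237 under the label *elp3 tcd1* and 338, 353 and 319.9 in *urm1 tcd1*. It was called in all 4 mutants, with its largest rise, 2.12-fold, in *elp3 deg1*, and no mutant library overlapped WT. *PRE1* (YER012W, chrV:177835-178431, + strand) had the smallest mean log2 fold change of the ring, with 174, 176, 162 and 177 CPM in WT, 253, 264, 283 and 265 in *elp3 deg1*, 152, 150.5, 169 and 162 for *urm1 deg1*, 197, 187 and 175 under the label *elp3 tcd1* and 199.8, 212 and 211 in *urm1 tcd1*. Its fall in *urm1 deg1* was small (log2 fold change -0.14 ± 0.05 SE, edgeR adjusted p = 0.0062). The call of *PRE1* there was lost with DESeq2, upper quartile scaling, library totals alone and one fit over the 18 libraries. It was also lost without WT replicate 1, 2 or 4 or mutant replicate 1 or 2. Of the genes for the other peptidase sites, *PRE3* (caspase-like) was higher by 0.92 in *elp3 deg1*, 0.35 under the label *elp3 tcd1* and 0.46 in *urm1 tcd1* and was -0.06 in *urm1 deg1*, where it was not called, and *PRE2* (chymotrypsin-like) was higher by 0.68 in *elp3 deg1* and 0.32 in *urm1 tcd1*. Within the ring *PRE4* differed most between mutants, with 0.55 in *elp3 deg1*, -0.32 in *urm1 deg1*, -0.00 (not called) under the label *elp3 tcd1* and 0.80 in *urm1 tcd1*.

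Among the ATPases of the base, all 6 were higher in *elp3 deg1* and 5 of 6 in *urm1 tcd1*, against 33.1% and 32.8% of all genes. *RPT6* (YGL048C, chrVII:410069-411286, - strand) was the exception, with 294, 314, 308 and 299.9 CPM in WT, 334, 339.8, 323 and 334 in *elp3 deg1*, 251, 266, 275 and 249 for *urm1 deg1*, 259, 253 and 259 under the label *elp3 tcd1* and 255, 258 and 248 in *urm1 tcd1*. Its libraries were above WT in *elp3 deg1* (log2 fold change 0.13 ± 0.04 SE, edgeR adjusted p = 0.00291, a call lost without WT replicate 1 or 4, and a value of -0.00405 with library totals alone) and below WT in the other 3 mutants, by -0.25 in each of them. The remaining members of the ring, *RPT2*, *RPT3*, *RPT4* and *RPT5*, rose by 0.43 to 0.63 in *elp3 deg1* and by 0.23 to 0.39 in *urm1 tcd1*, where *RPT2* and *RPT3* were at -0.00247 and -0.0536 with library totals alone and *RPT4* and *RPT5* also lost their calls.

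*RPT1* (YKL145W, chrXI:174213-175616, + strand) is the only member on chromosome XI, and had the largest log2 fold change of the 38. It had 243, 248, 257 and 255 CPM in WT, 445, 436, 424 and 439 in *elp3 deg1*, 256, 266, 263 and 234 for *urm1 deg1*, 310.1, 325 and 319 under the label *elp3 tcd1* and 826, 859 and 810.2 in *urm1 tcd1*. The *urm1 tcd1* libraries stood 3.33-fold over WT (log2 fold change 1.73 ± 0.04 SE, edgeR adjusted p = 1.15e-30), while those of *urm1 deg1* overlapped WT. In *urm1 tcd1* the median log2 fold change of the 325 tested genes of chromosome XI was 1.01, whereas the other 12 chromosomes that hold a member had medians of -0.12 to 0.11 over all comparisons. Relative to its chromosome, *RPT1* was higher by 0.73 in *urm1 tcd1*, by 0.76 in *elp3 deg1* and by 0.32 under the label *elp3 tcd1*. The part of the chromosome in the rise of *RPT1* was not tested. Without *RPT1* the median of the remaining 32 subunits was 0.39 in *urm1 tcd1* and 0.53 in *elp3 deg1*. A reading frame of 93 bases on the same strand lies inside *RPT1*, and it held 0 counts in the 18 libraries. How reads that overlap both were counted was not examined, so this 0 is no measure of the frame.

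The non-ATPase subunits of the base, which receive ubiquitin and its shuttle proteins, moved in different directions. *RPN2* (YIL075C, chrIX:217863-220700, - strand), a scaffold of the base, had 512, 570.1, 542 and 529 CPM in WT, 473, 483, 474 and 467 in *elp3 deg1*, 388, 377, 373 and 367 for *urm1 deg1*, 437, 429 and 427 under the label *elp3 tcd1* and 556, 544 and 575 in *urm1 tcd1*. It fell in *elp3 deg1* (log2 fold change -0.18 ± 0.04 SE, edgeR adjusted p = 5.24e-05), in *urm1 deg1* (-0.55 ± 0.04 SE, edgeR adjusted p = 3.17e-18) and under the label *elp3 tcd1* (-0.33), and was the only subunit lower in *elp3 deg1*. *RPN13* (YLR421C, chrXII:965090-965560, - strand), a ubiquitin receptor, had 108, 103, 113 and 104 CPM in WT, 133, 141, 135 and 147 in *elp3 deg1*, 99.6, 94.9, 83.5 and 99.4 for *urm1 deg1*, 105, 106 and 109 under the label *elp3 tcd1* and 154, 158 and 163 in *urm1 tcd1*. It rose in *elp3 deg1* (0.38) and *urm1 tcd1* (0.57) and fell in *urm1 deg1* (-0.21, a call lost without mutant replicate 3, with upper quartile scaling and with library totals alone). *RPN10*, another receptor, was called only in *elp3 deg1* (0.27). *RPN1* was higher by 0.38 in *elp3 deg1* and 0.27 in *urm1 tcd1* and was at -0.24 in *urm1 deg1*, called lower. Under library totals *RPN1* had a value of -0.0157 in *urm1 tcd1*.

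In the lid, 7 of 9 genes were higher in *elp3 deg1*, 3 in *urm1 deg1*, 2 under the label *elp3 tcd1* and 4 in *urm1 tcd1*, against 33.1%, 33.2%, 32.1% and 32.8% of all genes, so that the counts in *urm1 deg1* and under the label *elp3 tcd1* are near or under the background. *SEM1* (YDR363W-A, chrIV:1202128-1202397, + strand), the smallest subunit of the lid and the shortest member gene (270 bases), had 54.9, 44.1, 51.4 and 50.7 CPM in WT, 104, 113, 105 and 107 in *elp3 deg1*, 61.5, 58, 62.7 and 65.9 for *urm1 deg1*, 78, 87.7 and 81.6 under the label *elp3 tcd1* and 145, 158 and 146 in *urm1 tcd1*. Every mutant library was above every WT library, by 2.13-fold in *elp3 deg1*, 1.21-fold in *urm1 deg1*, 1.62-fold under the label *elp3 tcd1* and 2.98-fold in *urm1 tcd1*. The call in *urm1 deg1* was lost with DESeq2 and without WT replicate 2. *RPN5* (YDL147W, chrIV:190924-192261, + strand) stood at the other end, with 346, 339.7, 334 and 360.1 CPM in WT, 366, 367, 365 and 357 in *elp3 deg1*, 337, 315, 329 and 324 for *urm1 deg1*, 343, 348 and 329.8 under the label *elp3 tcd1* and 362, 341 and 338 in *urm1 tcd1*. Its single call was in *urm1 deg1* (log2 fold change -0.11 ± 0.04 SE, edgeR adjusted p = 0.00798). That call was lost with DESeq2, upper quartile scaling, library totals alone, TMM factors taken without chromosome XI genes and one fit over the 18 libraries. It was also lost without any one of WT replicates 1, 2 and 4 and mutant replicates 2, 3 and 4. *RPN11*, which removes the ubiquitin chain, rose by 0.53 in *elp3 deg1*, 0.21 in *urm1 deg1* and 0.63 in *urm1 tcd1*, and *RPN8*, its partner, was higher in all 4 (0.41, 0.14, 0.22 and 0.54), of which the second was lost with DESeq2 and without WT replicate 3. *RPN6* rose by 0.57 in *elp3 deg1* and was lower in *urm1 deg1* (-0.22) and *urm1 tcd1* (-0.16, a call lost without mutant replicate 1 and with TMM factors taken without chromosome XI genes). *RPN9* was the only member called in no comparison.

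Of the regulator and the associated genes, *UMP1* was higher and *RPN4* and *ECM29* were lower in *elp3 deg1*, and none of the 5 was called higher in another mutant. *RPN4* (YDL020C, chrIV:415113-416708, - strand) had 397, 383, 374 and 397 CPM in WT, 186, 215, 194 and 177 in *elp3 deg1*, 273, 282, 292 and 285 for *urm1 deg1*, 319.7, 302 and 319 under the label *elp3 tcd1* and 418, 373 and 412 in *urm1 tcd1*. The libraries of the first 3 mutants lay below all WT libraries, at 49.8%, 71.6% and 80.5% of WT (log2 fold change -1.01 ± 0.05 SE, edgeR adjusted p = 2.70e-19, -0.48 ± 0.04 SE, edgeR adjusted p = 1.11e-15 and -0.31 ± 0.04 SE, edgeR adjusted p = 2.85e-10), and those of *urm1 tcd1* overlapped WT (0.05 ± 0.04 SE, edgeR adjusted p = 0.269). In *elp3 deg1*, where the subunits were highest, the *RPN4* mRNA was lowest, in percentile 5.76 of all log2 fold changes, while the median subunit stood in percentile 81.3. In *urm1 tcd1*, where the subunits were also higher, *RPN4* stood in percentile 54.9. These are mRNA levels, and the Rpn4 protein was not measured.

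**Figure D2:**
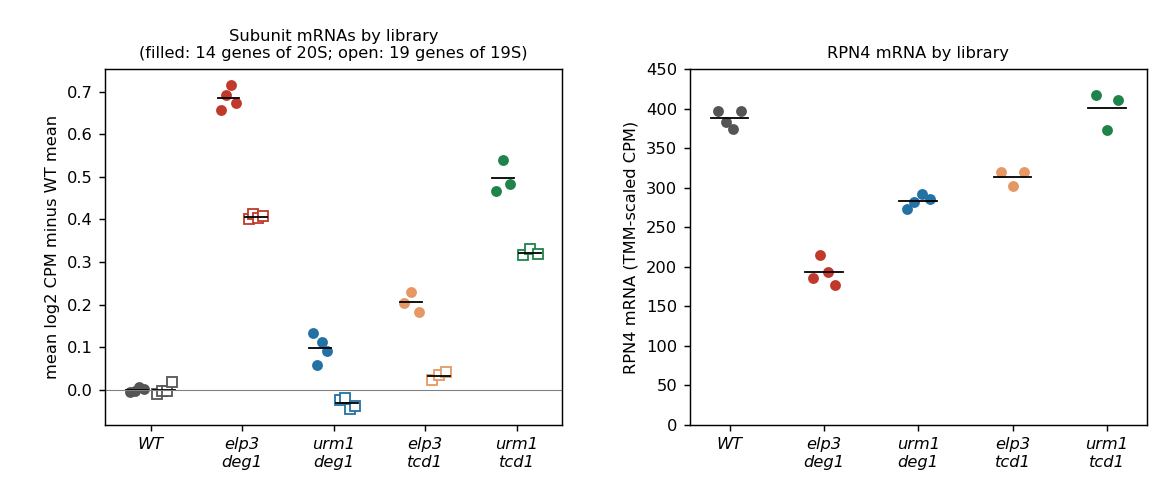
Left, the mean log2 CPM over the 14 core (filled) and the 19 regulatory particle (open) subunits in each library, minus the WT mean. Right, the CPM of *RPN4* in each library, with black lines for group means: the 4 *elp3 deg1* libraries have the highest subunit means (0.66 to 0.71 for the core) and the lowest *RPN4* (177 to 215 CPM).

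*UBP6* (YFR010W, chrVI:165067-166566, + strand), a deubiquitinase bound to the base, had 300.3, 304, 311 and 309 CPM in WT, 296, 295, 279 and 288 in *elp3 deg1*, 292, 300.1, 304 and 312 for *urm1 deg1*, 228, 214 and 228 under the label *elp3 tcd1* and 201, 189 and 204 in *urm1 tcd1*. It fell under both *tcd1* labels (log2 fold change -0.46 ± 0.04 SE, edgeR adjusted p = 7.96e-15 and -0.62 ± 0.05 SE, edgeR adjusted p = 1.80e-14) and was called in neither *deg1* mutant, although its *elp3 deg1* libraries also lay below those of WT. *RPN14* (YGL004C, chrVII:490703-491956, - strand), a chaperone of base assembly, had 75, 81.8, 71.4 and 80.3 CPM in WT, 59.2, 68.1, 67.7 and 74.1 in *elp3 deg1*, 78.8, 78.8, 67.4 and 78.9 for *urm1 deg1*, 70.3, 62.4 and 65.6 under the label *elp3 tcd1* and 47.4, 48.3 and 42.1 in *urm1 tcd1*. Its libraries lay below those of WT in *urm1 tcd1* (-0.74 ± 0.09 SE, edgeR adjusted p = 1.07e-09) and under the label *elp3 tcd1* (-0.22 ± 0.07 SE, edgeR adjusted p = 0.00458). The latter call was lost with DESeq2, upper quartile scaling, library totals alone and the replicate number as a block. It was also lost without WT replicate 2 or 4 or mutant replicate 2 or 3. With replicate 4 kept, the call of *RPN14* was lost under both *tcd1* labels. The deleted genes of those left-out libraries go against the labels, so this loss does not bear on the steadiness of the call. *ECM29* (YHL030W, chrVIII:40084-45690, + strand), a scaffold that tethers the core to the regulatory particle, had 110.0, 123, 108 and 112 CPM in WT, 99.4, 103, 79.2 and 94.2 in *elp3 deg1*, 65.4, 65, 60.8 and 67.3 for *urm1 deg1*, 129, 102 and 109.5 under the label *elp3 tcd1* and 116, 116 and 112 in *urm1 tcd1*. It fell in both *deg1* mutants (-0.26 ± 0.07 SE, edgeR adjusted p = 8.10e-04 and -0.83 ± 0.06 SE, edgeR adjusted p = 1.10e-16) and was not called under the *tcd1* labels. *UMP1* (YBR173C, chrII:581726-582172, - strand), the chaperone that matures the core and is degraded in it, had 121, 112, 116 and 116 CPM in WT, 148, 158, 163 and 148 in *elp3 deg1*, 92.7, 95.9, 86.8 and 96.8 for *urm1 deg1*, 102, 116 and 108 under the label *elp3 tcd1* and 119.9, 126 and 122 in *urm1 tcd1*, and it rose in *elp3 deg1* (0.41 ± 0.05 SE, edgeR adjusted p = 2.33e-08) and fell in *urm1 deg1* (-0.35 ± 0.05 SE, edgeR adjusted p = 2.64e-07).

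The mutants were then compared with each other, in one fit over the 18 libraries, to test the differences themselves. Between the *deg1* pairs, 33 of the 38 members were higher in *elp3 deg1* than in *urm1 deg1* and 1, *RPN4*, was lower, against 31.4% and 31% of all genes. The median difference of the 33 subunits was 0.49 log2. *PRE3* differed most, by 0.95, followed by *PUP3* with 0.85 and *PRE4* with 0.84, and *RPN4* differed by -0.55 (SE 0.05, adjusted p = 2.60e-14 by edgeR). Between the *tcd1* labels, with TMM scaling, the order was the opposite, with 3 members higher and 23 lower in the libraries labelled *elp3 tcd1* than in *urm1 tcd1*, against 30.3% and 29.7% of all genes. The median of the subunits was -0.28, and *RPN6*, *RPN14* and *UBP6* were the 3 that were higher, a count that fell to 1, *RPN14*, without replicate 3 of the label *elp3 tcd1* and with DESeq2. The call of *RPN6* was also lost without *urm1 tcd1* replicate 1 or 3, and that of *UBP6* without replicate 1 of the label *elp3 tcd1* or *urm1 tcd1* replicate 2. With *elp3* held constant, 33 members were higher and 2 lower in *elp3 deg1* than in the libraries labelled *elp3 tcd1* (30% and 29.9% of all genes), the lower ones being *RPN4* and, except without replicate 1 of the label *elp3 tcd1*, *ECM29*. With *urm1* held constant, 4 members were higher and 28 lower in *urm1 deg1* than in *urm1 tcd1* (34.4% and 33.9% of all genes), with a subunit median of -0.35. *RPT1*, *SEM1* and *PRE4* gave the largest differences between *urm1 deg1* and *urm1 tcd1* (-1.71, -1.27 and -1.09).

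All of these values are relative to the bulk of the genes in a library, and they depend on that scaling. The TMM factors lay between 1.04 and 1.05 in WT, 0.943 and 0.953 in *elp3 deg1*, 1.07 and 1.09 in *urm1 deg1*, at 1.07 under the label *elp3 tcd1* and between 0.846 and 0.872 in *urm1 tcd1*. With library totals alone, an alternative added after seeing the data, the median of all genes moved by -0.14 in *elp3 deg1* and -0.28 in *urm1 tcd1*. Under it *elp3 deg1* had 29 higher members against 5 lower, with a subunit median of 0.39 and 10 members past 0.5 log2, but *urm1 tcd1* had 14 higher and 14 lower, with a subunit median of 0.11, and *RPN4* was called lower there at -0.23. In the same mutant *PRE1* and *RPN12* moved from 0.28 and 0.27 to -0.00592 and -0.00762. In *urm1 deg1* this scaling gave 15 higher and 10 lower members, and under the label *elp3 tcd1* 13 and 6. Upper quartile scaling gave 15 and 10 in the former and 15 and 4 in the latter. As a share of all counts, the 38 mRNAs took 0.868% ± 0.0056 (SD, n = 4) in WT, 1.05% ± 0.0093 (n = 4) in *elp3 deg1*, 0.875% ± 0.0025 (n = 4) in *urm1 deg1*, 0.91% ± 0.0034 (n = 3) under the label *elp3 tcd1* and 0.895% ± 0.0073 (n = 3) in *urm1 tcd1*. These shares include *RPT1*, which held 2348 to 2438 counts in *urm1 tcd1* against 848 to 911 in WT. The share without *RPT1* was not computed, so the value of *urm1 tcd1* does not show a rise of the other members. With library totals the median of all genes moved by 0.31 between the *tcd1* labels and by 0.33 between *urm1 deg1* and *urm1 tcd1*. The members moved along with all genes, by at most 0.313 and 0.332. The shares of all genes called were not counted under library totals or upper quartile scaling. The member counts given for these scalings therefore have no background beside them. With library totals the contrast between the *tcd1* labels had 16 higher and 7 lower members, and that of *urm1 deg1* with *urm1 tcd1* had 12 and 12. *RPT2*, *RPT3* and *RPN3* were then called in the opposite direction between the *tcd1* labels, as were *PRE2* and *RPT3* between *urm1 deg1* and *urm1 tcd1*. The contrasts of *elp3 deg1* with *urm1 deg1* (28 higher, 4 lower) and with the label *elp3 tcd1* (27 and 2) kept their direction, with shifts of -0.19 and -0.17 in the median of all genes.

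Averaged over the 33 subunits, the log2 level against WT was 0.52 ± 0.01 (SD, n = 4) in *elp3 deg1*, 0.02 ± 0.01 (n = 4) in *urm1 deg1*, 0.11 ± 0.01 (n = 3) under the label *elp3 tcd1* and 0.40 ± 0.02 (n = 3) in *urm1 tcd1*, and the WT libraries spread by 0.01 (SD, n = 4). The core exceeded the regulatory particle in each mutant, with means of 0.68 against 0.41 in *elp3 deg1*, 0.10 against -0.03 in *urm1 deg1*, 0.21 against 0.03 under the label *elp3 tcd1* and 0.50 against 0.32 in *urm1 tcd1*, and in every mutant library the core mean was the higher. This comparison between groups of genes was not tested.

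Per gene length, the subunits were at similar but not equal levels. In WT they ranged from 109 CPM per kilobase for *RPN1* to 332 for *SCL1*, a ratio of 3.05, with a median of 217. The neighbours below *SCL1* in this order were *PUP3* at 294 ± 8.84 and *PRE10* at 292 ± 9.15 (SD, n = 4), which did not differ beyond their spread, and at the lower end *PUP1* stood at 111 ± 6.47 and *RPN1* at 109 ± 3.76. In *elp3 deg1* the range widened from 142 for *RPN1* to 622 for *PUP3*, and in *urm1 tcd1* from 130.3 to 592 for *RPT1*. The spread over the 33 subunits (SD of the log2 level per kilobase) was smallest in WT at 0.35 and largest in *urm1 tcd1* at 0.51, or 0.48 there without *RPT1*, and lay between these at 0.46 for *elp3 deg1*, 0.39 for *urm1 deg1* and 0.41 for the label *elp3 tcd1*. The ratio of the median core level to the median regulatory particle level was 1.25 for WT, 1.33 for *elp3 deg1*, 1.26 for *urm1 deg1*, 1.31 under the label *elp3 tcd1* and 1.44 in *urm1 tcd1*.

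**Figure D3:**
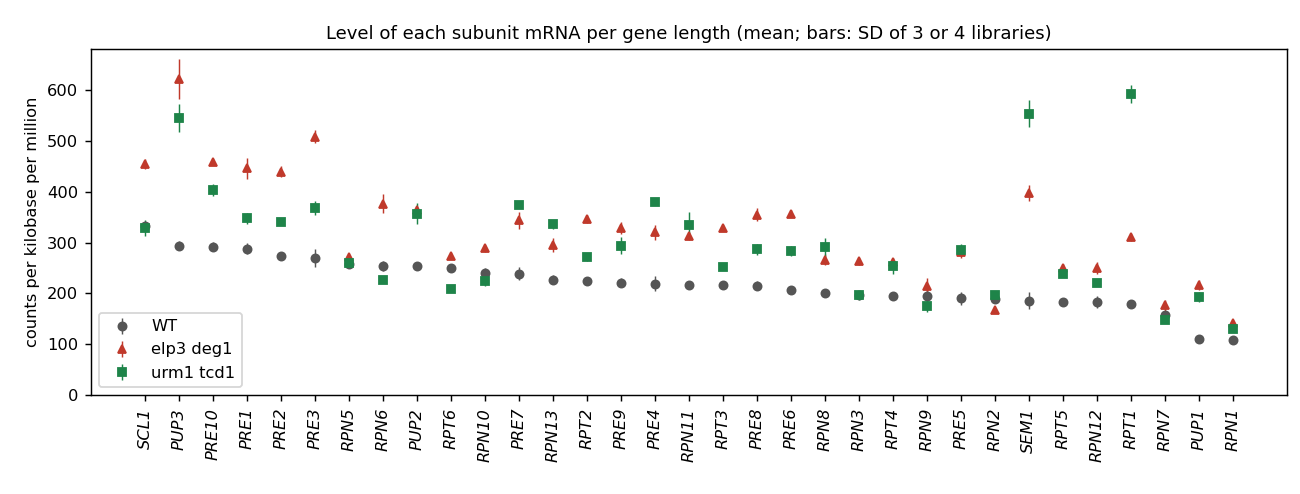
Level of each of the 33 subunit mRNAs per gene length (CPM per kilobase, TMM-scaled, mean with bars for the SD of 3 or 4 libraries) in WT, *elp3 deg1* and *urm1 tcd1*, ordered by WT. *SEM1* rises from 186 in WT to 397 and 554, and *RPT1* from 179 to 310.3 and 592.

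Log2 fold changes tended to be higher in the shorter subunit genes. An exception was *urm1 deg1*, where the 2 subunit genes of up to 500 bases had a median of 0.03. All tested genes of that length had 0.07 there. Across the 33 subunits, which share their libraries, Spearman's rho of log2 fold change and gene length was -0.50 in *elp3 deg1*, -0.36 in *urm1 deg1*, -0.44 under the label *elp3 tcd1* and -0.48 in *urm1 tcd1*, and over all 5849 tested genes it was -0.19, -0.10, -0.16 and -0.23. Of the subunit genes, 17 were between 500 and 1000 bases long, with a median log2 fold change of 0.57 in *elp3 deg1* and 0.46 in *urm1 tcd1*, where all tested genes of this length had 0.13 and 0.10. The 11 subunit genes between 1000 and 1500 bases had 0.43 and 0.23, where all tested genes of this length had -0.02 and -0.10. In both length classes the subunits thus stood above genes of their length in these mutants, and in *urm1 deg1* they stood near them (0.10 against 0.07, and -0.01 against 0.02). The core genes are among the shorter ones, and the part of length in the difference between core and regulatory particle was not tested.

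**Figure D4:**
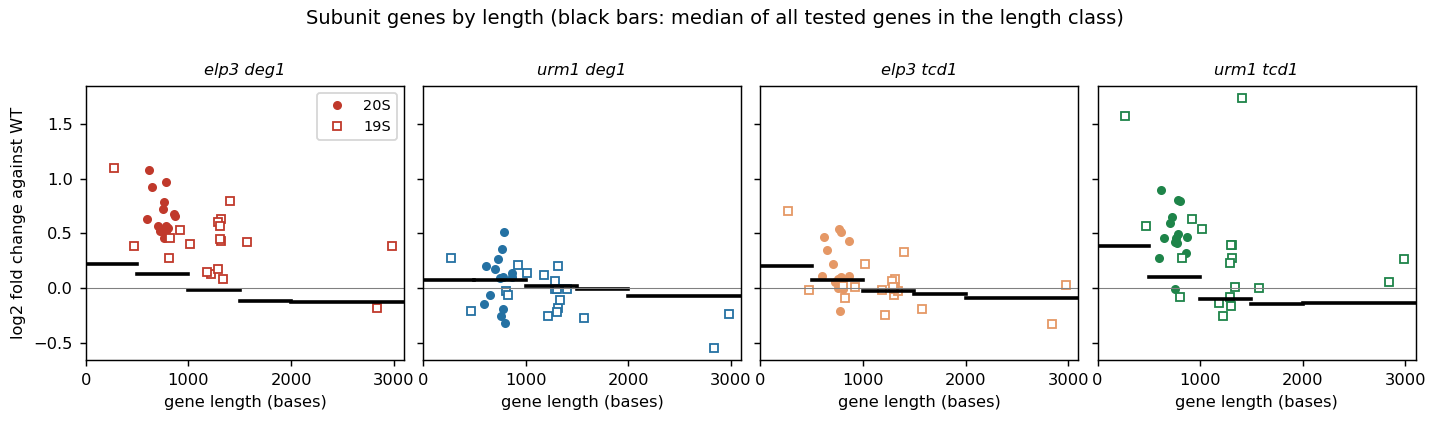
Log2 fold change against WT (y axis) by gene length in bases (x axis) for the 14 core (filled) and 19 regulatory particle (open) subunit genes, in one panel for each mutant. Black bars give the median of all tested genes in each length class, and in *elp3 deg1* 32 of the 33 subunits lie above 0.

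The log2 fold changes were also set beside the promoter letters. In *elp3 deg1* the 27 subunits with PACE had a median of 0.53, and 24 were called higher. The 6 without it had 0.49, and all 6 were called higher. Of these 6, only *RPN13* also lacked the inner letters, which stood before 32 of the 33 subunits. The medians with and without PACE were -0.01 and 0.16 in *urm1 deg1* and 0.01 and 0.22 under the label *elp3 tcd1*. In *urm1 tcd1* they were 0.32 and 0.58. The 44 tested genes with PACE that are not members had medians of 0.13 in *elp3 deg1*, -0.14 in *urm1 deg1*, 0.05 under the label *elp3 tcd1* and 0.15 in *urm1 tcd1*. Of these 44, 19 were higher and 11 lower in *elp3 deg1*, against 33.1% and 33.4% of all genes. The counts were 11 and 20 in *urm1 deg1* (33.2% and 33.1% of all genes). Under the label *elp3 tcd1* they were 15 and 12 (32.1% and 32.3%), and in *urm1 tcd1* 20 and 13 (32.8% and 32.2%). The median member gene had 28 CAA and 42.4 AAA codons per 1000 codons, where tested protein-coding genes had 25.5 and 41.2.

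Of 10 further genes that bear on proteasome assembly or activity, 5 were higher and 1 lower in *elp3 deg1* (33.1% and 33.4% of all genes). The counts were 3 and 5 for *urm1 deg1*, 5 and 3 under the label *elp3 tcd1*, and 5 and 3 in *urm1 tcd1*. For these mutants the shares of all genes were 32.1% to 33.2% higher and 32.2% to 33.1% lower. Among the 5 higher in *urm1 tcd1* was *ADD66* (0.87), on chromosome XI, whose tested genes had a median of 1.01 there. *TMA17* (YDL110C, chrIV:264512-264964, - strand), an assembly chaperone of the base, was higher in all 4, with 90.2, 99.3, 92.6 and 107 CPM in WT, 197, 234, 218 and 191 in *elp3 deg1*, 153, 146, 152 and 159 for *urm1 deg1*, 188, 191 and 182 under the label *elp3 tcd1* and 145, 152 and 145 in *urm1 tcd1*. Every mutant library exceeded WT, with log2 fold changes of 1.11, 0.62, 0.94 and 0.61. *BLM10*, which encodes an activator that caps the core, was higher by 0.61, 0.16, 0.54 and 0.69 in the same order, and *FUB1* by 0.76, 0.45, 0.86 and 0.49. *IRC25*, a chaperone of alpha ring assembly, was lower in all 4 (-0.49, -0.56, -0.24 and -0.80).

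The lists around Rpn4 hold 4 and 3 genes, and since 32.1% to 33.2% of all genes were called higher and 32.2% to 33.4% lower in each mutant, their counts are a description only. Of the 4 genes listed as activators of *RPN4* transcription, *HSF1* (YGL073W, chrVII:368753-371254, + strand), the heat shock factor, was lower in all 4 mutants, with 231, 221, 213 and 223 CPM in WT, 176, 165, 178 and 156 in *elp3 deg1*, 109.8, 101, 134 and 122 for *urm1 deg1*, 168, 147 and 153 under the label *elp3 tcd1* and 197, 201 and 204 in *urm1 tcd1*. Its log2 fold changes were -0.40, -0.96, -0.52 and -0.14, so that the order of the mutants was not that of *RPN4*. Of this list 1 gene was higher and 3 were lower in *elp3 deg1*, 0 and 3 for *urm1 deg1*, 1 and 2 under the label *elp3 tcd1* and 1 and 2 in *urm1 tcd1*, and the gene that was higher was *YAP1*, the oxidative stress factor. *MUB1*, a cofactor of the ubiquitin ligase Ubr2 that marks Rpn4 for degradation, was higher in all 4 (0.45, 0.86, 0.68 and 0.46). Of the 3 genes listed for Rpn4 turnover, 3 were higher in *elp3 deg1*, 1 in *urm1 deg1*, 2 under the label *elp3 tcd1* and 3 in *urm1 tcd1*, and no gene of this list was called lower.

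Of 12 genes that supply and deliver ubiquitin, 7 were higher and 2 lower in *elp3 deg1* (33.1% and 33.4% of all genes), 4 and 7 for *urm1 deg1*, 3 and 3 under the label *elp3 tcd1*, and 4 and 4 in *urm1 tcd1*. The shares of all genes in the last 3 were 32.1% to 33.2% higher and 32.2% to 33.1% lower, and 4, 3 and 4 of 12 higher lie near or under them. Among the 4 higher in *urm1 tcd1* was *UBA1*, on chromosome XI, at 1.01, which was also the median of the tested genes of that chromosome. *DOA1* (YKL213C, chrXI:31960-34107, - strand), a Cdc48 cofactor, had the largest change of the list, with 320.5, 332, 319 and 338 CPM in WT, 245, 248, 242 and 235 in *elp3 deg1*, 143, 155, 156 and 165 for *urm1 deg1*, 152, 142 and 143 under the label *elp3 tcd1* and 309, 296 and 294 in *urm1 tcd1*. It fell by 0.43, 1.11 and 1.18 on the log2 scale in the first 3 mutants, and in *urm1 tcd1*, where the genes of its chromosome XI had a median of 1.01, it was at -0.12 and not called.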

How the data were processed

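The authors aligned single-end reads of stranded poly(A) libraries with STAR 2.5.1b to genome R64 and deposited raw counts per gene; per the file headers the counting was by featureCounts 1.4.6-p2 with the reverse-strand setting and Ensembl release 84, whereas the submitters' processing notes name HTSeq 1.4.6-p2 and DESeq2 1.10.1. Libraries were made with PCR and without molecular identifiers. The SE and SD given here hold the spread between libraries as well as counting error. The 18 libraries held 3273876 to 3926511 counts.

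From these counts, each mutant was compared with WT by the quasi-likelihood test of edgeR 4.0.16 (R 4.3.3) with TMM normalization, after filterByExpr with a minimum count of 10, and mutants were compared with each other in one fit over the 18 libraries. Genes were called at p adjusted by Benjamini-Hochberg of no more than 0.01, with or without a log2 fold change of at least 0.5. CPM are TMM-scaled. The scripts were tested on simulated data. No replicate pair agreed within sampling noise.

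The members and the gene lists were chosen with earlier results of these data known. Genes described by library were the regulator and the associated genes, *RPT1*, the highest and the lowest mean log2 fold change of each class, and up to 6 genes called one way in all 4 comparisons. All members could be named with values. Genes of the other lists were named if called one way in all 4 or largest in their list. *YAP1* was named because it was the single gene behind a count, and *UBA1* and *ADD66* because they lie on chromosome XI. Alternatives were DESeq2 1.42.0, RLE and upper quartile normalization, TMM without chromosome XI genes, library totals, no filter, a threshold of 0.05, one fit over the 18 libraries, the replicate number as a block, the left-out libraries kept, and each replicate left out.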

Additional observations from a re-analysis of the deposited data

Results flagged for a closer look

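In 6 of 114 groups of 4 libraries, 1 library stood apart from the other 3 by Dixon's criterion, where chance gives about 1 in 20 groups. On the log2 CPM scale, *SCL1* in *urm1 deg1* replicate 4 was at 7.83 with the others at 7.73 to 7.74, *PUP3* in WT replicate 1 at 7.44 with the others at 7.52 to 7.54, and *RPN10* in *urm1 deg1* replicate 1 at 7.67 with the others at 7.58. *RPN5* in *elp3 deg1* replicate 4 was at 8.48 with the others at 8.51 to 8.52, *RPN9* in the same library at 8.14 with the others at 7.93 to 7.94, and *RPN14* in *urm1 deg1* replicate 3 at 6.09 with the others at 6.31.

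The difference between mutants was itself tested by edgeR and exceeded 1 log2 for 3 genes. *RPT1* differed by -1.39 between the label *elp3 tcd1* and *urm1 tcd1* (adjusted p = 6.58e-31) and by -1.71 between *urm1 deg1* and *urm1 tcd1* (adjusted p = 4.40e-36). Between *urm1 deg1* and *urm1 tcd1*, *SEM1* differed by -1.27 (adjusted p = 1.96e-22) and *PRE4* by -1.09 (adjusted p = 7.59e-23).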

How the results depend on the processing

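Of 3144 values under alternatives, 2942 kept their direction and their side of the threshold, 93 no longer passed it, 56 newly passed it, 11 changed direction and 42 moved. With library totals alone, added after seeing the data, *elp3 deg1* had 5 lower members, 10 past 0.5 log2 and a subunit median of 0.39, the medians of *urm1 deg1* and the label *elp3 tcd1* became 0.0775 and 0.0698, and *urm1 tcd1* had 14 higher and 14 lower members and a median of 0.11. Under it *RPT6* was at -0.00405 in *elp3 deg1*, and in *urm1 tcd1* *PRE1* was at -0.00592, *RPT2* at -0.00247, *RPT3* at -0.0536, *RPN1* at -0.0157 and *RPN12* at -0.00762. Lower members of *elp3 deg1* against *urm1 deg1* became 4, the *tcd1* labels had 16 higher and 7 lower, and *urm1 deg1* against *urm1 tcd1* had 12 and 12, and the differences of *RPT2*, *RPT3* and *RPN3* between the *tcd1* labels turned to 0.134, 0.163 and 0.136 and those of *PRE2* and *RPT3* between *urm1 deg1* and *urm1 tcd1* to 0.145 and 0.132, all called. Upper quartile scaling gave medians of 0.0588 in *urm1 deg1*, 0.10 under the label *elp3 tcd1* (15 higher, 4 lower, 5 past 0.5 log2) and 0.33 in *urm1 tcd1*. DESeq2 called 6 members higher in *urm1 deg1* and 1 between the *tcd1* labels, and one fit over the 18 libraries gave a median of 0.0220 in *urm1 deg1*. With replicate 4 kept, the label *elp3 tcd1* had 2 lower members and a median of 0.18, and *urm1 tcd1* had 14 higher, 2 lower, 7 past 0.5 log2 and a median of 0.28, with 8 and 12 calls lost. The deleted genes of the replicate 4 libraries go against their labels, so these losses do not bear on the steadiness of the calls. The replicate block gave a median of 0.0477 under the label *elp3 tcd1*, where the call of *RPN14* was lost. The numbers share no labelled origin, and same-numbered libraries had a mean correlation of 0.00843 over 33 pairs, against -0.00288 over 96 others. Leaving out 1 library gave medians of 0.0288 to 0.0493 under the label *elp3 tcd1*, 1 to 2 lower members between the *deg1* pairs (2 without *elp3 deg1* replicate 4 or *urm1 deg1* replicate 3), 1 to 3 higher between the *tcd1* labels, and 1 to 2 lower in *elp3 deg1* against the label *elp3 tcd1*. The shares of all genes called were not counted under the alternatives, so the member counts here have no background. The cause of the changes under the alternatives was not tested.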

Other observations

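The left-out libraries carry labels that their counts of the deleted genes go against, and they entered only the alternative that keeps them. The library labelled *elp3 tcd1* replicate 4 had 345 *ELP3* counts and 0 for both *URM1* and *TCD1*. Its subunits stood at a median of 0.37 log2 over the WT mean, with *RPT1* at 1.77, *SEM1* at 1.46 and *RPN4* at 0.12. The library labelled *urm1 tcd1* replicate 4 had 5 *ELP3*, 174 *URM1* and 154 *TCD1* counts, with a subunit median of 0.10, *RPT1* at 0.34, *SEM1* at 0.67 and *RPN4* at -0.40.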
